A study of Mus musculus with 6 samples.

Results

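The small heat shock proteins and chaperonins were followed through 7 genes, Hspb1, Hspb8, Cryab, Bag3, Hspd1, Hspe1 and Serpinh1, in pituitaries of mice lacking the histone demethylase Jmjd2a. They were taken by annotation alone, as every non-control probe assigned to a RefSeq transcript of one of them. That gave 10 probes of the 55681 on the array, and 7 of its 20972 named genes. Cryab had 2 probes, Hspe1 had 3 and the other 5 genes had 1 each. All 10 probes lay well above background on all 6 arrays, none was saturated, and all 7 genes could be tested.

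Pituitary RNA was measured on one-colour Agilent arrays, 1 animal per array. The KO group held 3 Jmjd2a-/- females, and the WT group held 3 Jmjd2a+/+ littermates. All 6 were virgin C57BL6 mice of 8 weeks. They were killed 24 h after their oestrus cycle had been started by bedding soiled by a stud male, the Whitten effect. The gene is now named Kdm4a, and its product takes methyl groups off histone H3. The sources used here do not say which part of it was deleted and name no promoter or cell type for it: the labels give a null genotype only. The comparison asks which transcripts of the gland differ when the demethylase is missing.

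Small heat shock proteins are chaperones that need no ATP: they hold unfolding proteins in a soluble state until other chaperones refold them. Chaperonins are closed chambers in which a protein folds alone, and the mitochondrial one is built from Hspd1 rings capped by Hspe1. Bag3 joins small heat shock proteins to Hsp70 chaperones and steers their clients towards autophagy, while Serpinh1 is a collagen chaperone of the endoplasmic reticulum, the compartment through which the pituitary hormones also pass. Many of these genes are induced through heat shock elements, promoter sites in which GAA units alternate in direction and which bind heat shock factor 1.

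The promoter windows are shown because several hold letters of such sites and because Hspd1 and Hspe1 share one. RefSeq windows on GRCm38.p6, from 250 bases before a transcription start to 50 after it, were at hand for 6 of the 7 genes, with 2 for Hspd1 and none for Cryab. They were searched for GAANNTTC, the head-to-head pair of units, and TTCNNGAA, the tail-to-tail pair. Both read the same on either strand, and neighbouring pairs may share a unit. Capitals mark the matches. The Bag3 window lies at chr7:128523333-128523632, plus strand, and its match ends at its last base. The Hspe1 window lies at chr1:55087898-55088197, plus strand.
Bag3: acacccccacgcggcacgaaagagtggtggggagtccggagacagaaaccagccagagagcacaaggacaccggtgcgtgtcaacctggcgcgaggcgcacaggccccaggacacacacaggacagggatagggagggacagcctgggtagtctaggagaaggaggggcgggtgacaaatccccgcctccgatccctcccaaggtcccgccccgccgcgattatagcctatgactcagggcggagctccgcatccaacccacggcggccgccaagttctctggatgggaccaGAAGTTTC
Hspe1: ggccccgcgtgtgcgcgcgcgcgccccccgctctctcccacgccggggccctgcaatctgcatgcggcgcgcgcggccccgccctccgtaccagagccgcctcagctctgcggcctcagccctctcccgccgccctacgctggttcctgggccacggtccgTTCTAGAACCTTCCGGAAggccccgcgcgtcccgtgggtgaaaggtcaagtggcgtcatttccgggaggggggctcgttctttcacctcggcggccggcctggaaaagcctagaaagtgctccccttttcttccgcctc

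In the Hspe1 window 3 matches overlapped in a run of 18 bases, from -89 to -72 counted from the start (position 1 is the first transcribed base). The run holds 4 alternating units. The second Hspd1 window, at chr1:55087883-55088182 on the minus strand, shares 285 bases with the Hspe1 window. From this Hspd1 start the 2 genes are transcribed away from each other, with 215 bases between the starts. The first Hspd1 start lies beyond the Hspe1 start, so transcription from it runs across that start, and the 2 windows share 4 bases. The same run stood at -144 to -127 of the second Hspd1 start. The shorter stretches below hold the matches of the small heat shock genes. They lie at chr5:135887794-135887817 and chr5:135887814-135887837 on the plus strand for Hspb1, and at chr5:116422847-116422870 on the minus strand for Hspb8.
Hspb1, first match: caacaagaGAAGTTTCcagatggg
Hspb1, second match: tgggggcaGAACCTTCctggcccc
Hspb8: agccaggaGAAGTTTCtaggctcg

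The Hspb1 matches spanned -117 to -110 and -97 to -90, the Hspb8 match 3 to 10 and the Bag3 match 43 to 50. The first Hspb1 match, the Hspb8 match and the Bag3 match had the same 8 letters. The Serpinh1 window and the first Hspd1 window held neither pair, which says only that these letters are not in those windows. Of all 32851 mouse windows of this length, 7.86% held the head-to-head pair, 8.52% the tail-to-tail pair and 15.1% at least 1 of them. Of the members' 7 windows, 5 did, but 2 of these, the Hspe1 window and the second Hspd1 window, hold the same run and are not separate cases. At least 3 alternating units in a row stood in 0.603% of all windows and in 2 of the members' windows, which hold the same bases. A match is a description of the sequence and not evidence of binding.

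**Figure D1:**
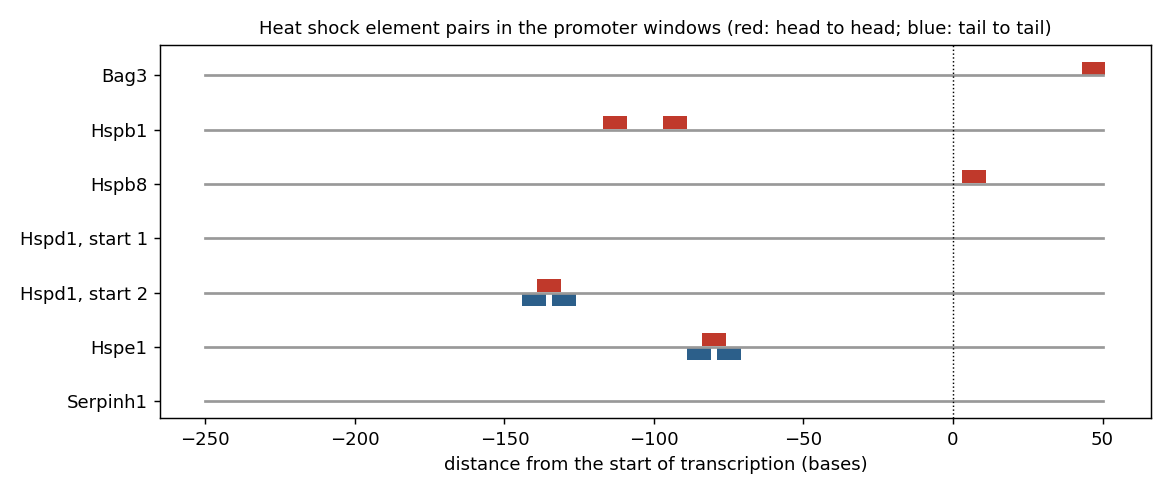
Position of each heat shock element pair in the members' promoter windows, in bases from the transcription start (dotted line). Red bars are head-to-head pairs and blue bars tail-to-tail pairs; the Hspe1 window and the second Hspd1 window carry 3 overlapping pairs each, and the first Hspd1 window and the Serpinh1 window carry none.

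Levels below are log2 spot signals relative to the 75th percentile of the same array, so that 1 unit is a doubling. Between 34634 and 37586 probes per KO array lay well above background, and between 34751 and 40567 per WT array. The arrays' 75th percentiles ran between 171 and 313 intensity units, and the small number of arrays limits the precision of every value. RNA integrity numbers were at least 9.9, per the labels. A probe of Kdm4a read 1.45, 1.20 and 1.36 on the KO arrays and 2.14, 1.90 and 1.85 on the WT arrays, and a probe outside the deleted stretch would check nothing. Pituitary hormone genes were strongly present on all arrays, with summed lactotrope markers at 451 to 546 times the 75th percentile in KO and 448 to 777 times in WT.

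Among the 7 genes, Bag3 stood apart between the groups: its KO values all lay above its WT values, at 1.98 times the WT level. Cryab lay lower in all KO than in all WT arrays, at 77.3% of the WT level, by a margin much smaller than its spread. Hspb1, Hspb8, Hspd1, Hspe1 and Serpinh1 overlapped between the groups, with log2 fold changes from -0.23 to 0.19. By limma with Benjamini-Hochberg adjustment over the 26887 features (genes or unnamed probes), 0 of the 7 members passed an adjusted p under 0.05, as did 0% of all features. At an adjusted p under 0.1 there were again 0 members, beside 0.0558% of all features. At an unadjusted p under 0.05 there was 1 member, Bag3, beside 12.8% of all features (3.89% higher and 8.92% lower in KO). The lower share of these features, 69.6%, depended on the scaling and was 22.9% with median centring, 42.9% with quantile normalization and 46.8% in the authors' deposited table. Of the 7 members, 1 had KO values wholly above and 1 wholly below the WT values, where 20.6% of all features had groups that did not overlap, 7.14% with KO higher and 13.5% with KO lower. In whole pituitaries, fewer cells of a type and less RNA per cell cannot be told apart.

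**Figure D2:**
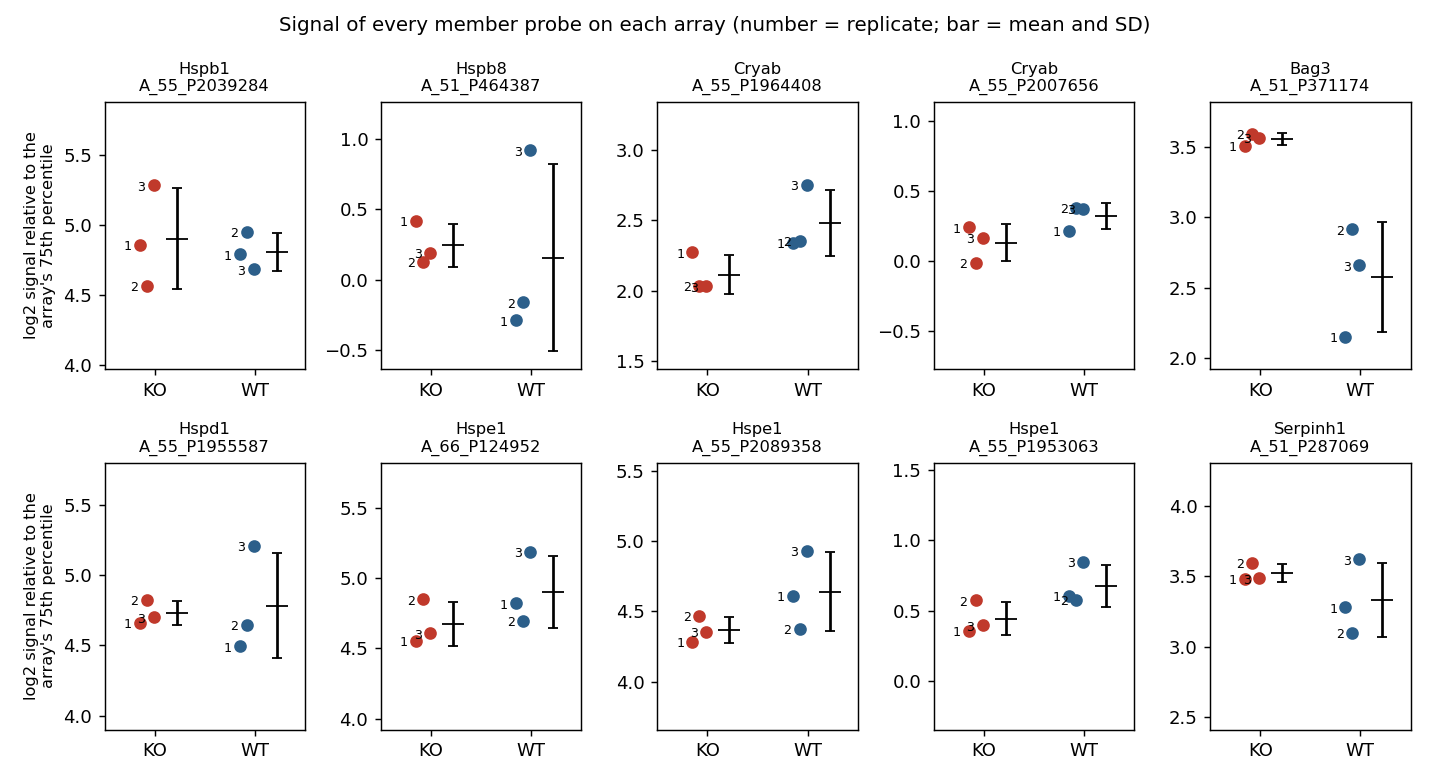
Log2 signal of the 10 member probes relative to each array's 75th percentile, with KO arrays in red left of WT arrays in blue; numbers are replicates, and bars show the mean and SD of 3 arrays. Every panel spans the same height. Bag3 has its KO arrays between 3.51 and 3.60, all above the WT arrays at 2.15 to 2.92.

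Hspb1 encodes the widely expressed small heat shock protein that also caps actin filaments. It read 4.86, 4.57 and 5.28 on the KO arrays and 4.79, 4.95 and 4.68 on the WT arrays. The groups overlapped, and KO replicates 3 and 2 marked the highest and the lowest of the 6 values. The means were 4.90 ± 0.36 in KO and 4.81 ± 0.14 in WT (SD, n = 3 each), a log2 fold change of 0.09 ± 0.20 (SE; limma adjusted p = 0.842). The 95% interval of the fold ran from 0.769 to 1.48. Without KO replicate 3 the log2 fold change was -0.10.

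Hspb8 encodes the small heat shock protein that binds Bag3. Its values were 0.42, 0.13 and 0.19 in KO, against -0.29, -0.16 and 0.92 in WT. The KO arrays lay within the range of the WT arrays, where WT replicate 3 stood far above the other two. The WT values spanned 2.31-fold and the KO values 1.22-fold. Means were 0.25 ± 0.15 in KO and 0.16 ± 0.66 in WT (SD, n = 3 each), and the log2 fold change was 0.09 ± 0.32 (SE; limma adjusted p = 0.911). The 95% interval of the fold, 0.631 to 1.79, was the widest among the members. Leaving out WT replicate 3 gave 0.47, and leaving out WT replicate 1 gave -0.13.

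Cryab encodes alphaB-crystallin, a small heat shock protein of lens, muscle and many stressed cells. Its brighter probe, A_55_P1964408, read 2.27, 2.03 and 2.03 on the KO arrays, against 2.34, 2.35 and 2.75 on the WT arrays. The groups were 0.07 apart at their nearest values, less than the SD of either group. The means were 2.11 ± 0.14 in KO and 2.48 ± 0.23 in WT (SD, n = 3 each). The log2 fold change was -0.37 ± 0.16 (SE; limma adjusted p = 0.392), and the KO level was 77.3% of the WT level with a 95% interval from 59.4% to 101%. The dimmer probe, A_55_P2007656, read 0.24, -0.01 and 0.17 in KO and 0.22, 0.38 and 0.37 in WT. There KO replicate 1 lay above WT replicate 1, and the log2 fold change was -0.19 ± 0.13 (SE; limma adjusted p = 0.542). The brighter probe's groups also overlapped after normexp background correction and after median centring. Its log2 fold change was -0.24 without WT replicate 3.

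Bag3 encodes the co-chaperone that links small heat shock proteins to Hsp70. Its background-subtracted signals were 2827, 2832 and 3613 intensity units on the KO arrays and 759, 2361 and 1219 on the WT arrays. Relative to the 75th percentile these were 3.51, 3.60 and 3.57 in KO and 2.15, 2.92 and 2.66 in WT. The lowest KO value lay 0.60 above the highest WT value. KO arrays agreed to within 1.06-fold, while WT arrays spanned 1.70-fold, with WT replicate 1 lowest. Means were 3.56 ± 0.04 in KO and 2.57 ± 0.39 in WT (SD, n = 3 each). The log2 fold change was 0.98 ± 0.20 (SE; limma adjusted p = 0.228), or 1.98-fold with a 95% interval from 1.42 to 2.76. Of all features tested, 0.826% had a smaller p, and 0.346% had a log2 fold change as high or higher.

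The Bag3 groups stayed apart under all 5 scalings, namely the 75th percentile, normexp, quantile normalization, median centring and the authors' deposited value table. The log2 fold change was 0.99 with normexp, 1.01 with quantile normalization, 1.16 with median centring and 0.98 in the authors' table. It was 0.77 without WT replicate 1, whose value was the lowest, and between 0.97 and 1.15 without any other array. The adjusted p ran from 0.0811 to 0.580 over the alternatives, and 0 of them gave a value under 0.05. The arrays sat on 1 slide in 2 rows, with the second replicate of each group in row 2. Row 1 alone gave 1.14 and row 2 alone, with 1 array per group, gave 0.68; with the row as a block the adjusted p was 0.321.

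Hspd1 encodes the barrel of the mitochondrial chaperonin. It read 4.66, 4.82 and 4.70 on the KO arrays and 4.50, 4.65 and 5.21 on the WT arrays. The KO values lay inside the WT range, and WT replicate 3 was the highest of the 6. The means were 4.73 ± 0.09 in KO and 4.78 ± 0.37 in WT (SD, n = 3 each), with a log2 fold change of -0.06 ± 0.20 (SE; limma adjusted p = 0.912) and a 95% interval of the fold from 0.693 to 1.34. The sign was not settled: it was 0.08 with quantile normalization, 0.12 with median centring, 0.02 in the authors' table and 0.16 without WT replicate 3.

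Hspe1 encodes the lid of that chaperonin, and 3 probes measured it. A_66_P124952, the brightest, read 4.56, 4.85 and 4.61 in KO and 4.82, 4.70 and 5.19 in WT, a log2 fold change of -0.23 ± 0.17 (SE; limma adjusted p = 0.559). A_55_P2089358 read 4.29, 4.47 and 4.36 in KO and 4.61, 4.38 and 4.93 in WT, a log2 fold change of -0.27 ± 0.17 (SE; limma adjusted p = 0.518). A_55_P1953063 read 0.36, 0.57 and 0.39 in KO and 0.60, 0.58 and 0.85 in WT, a log2 fold change of -0.23 ± 0.14 (SE; limma adjusted p = 0.498). WT replicate 3 was the highest array on each probe. The groups overlapped on the first and second of these probes, and on the dimmest they were 0.001 apart. The probes share the RNA and the arrays, so they are not replicates of the difference. Without WT replicate 3 the brightest probe gave -0.09. RefSeq lists 5 pseudogenes named after Hspd1 and 7 after Hspe1, and which copies these probes also take up was not tested.

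Serpinh1 encodes the collagen chaperone of the secretory pathway. It read 3.48, 3.59 and 3.49 on the KO arrays and 3.28, 3.10 and 3.62 on the WT arrays. WT replicate 3 was the highest of the 6, and the other WT arrays lay below all KO arrays. Means were 3.52 ± 0.06 in KO and 3.33 ± 0.26 in WT (SD, n = 3 each). The log2 fold change was 0.19 ± 0.16 (SE; limma adjusted p = 0.608), with a 95% interval of the fold from 0.876 to 1.48. In the authors' table its groups did not overlap, with KO at 11.50 to 11.55 and WT at 11.13 to 11.46 log2 units. The value was 0.33 without WT replicate 3 and 0.07 without WT replicate 2.

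**Figure D3:**
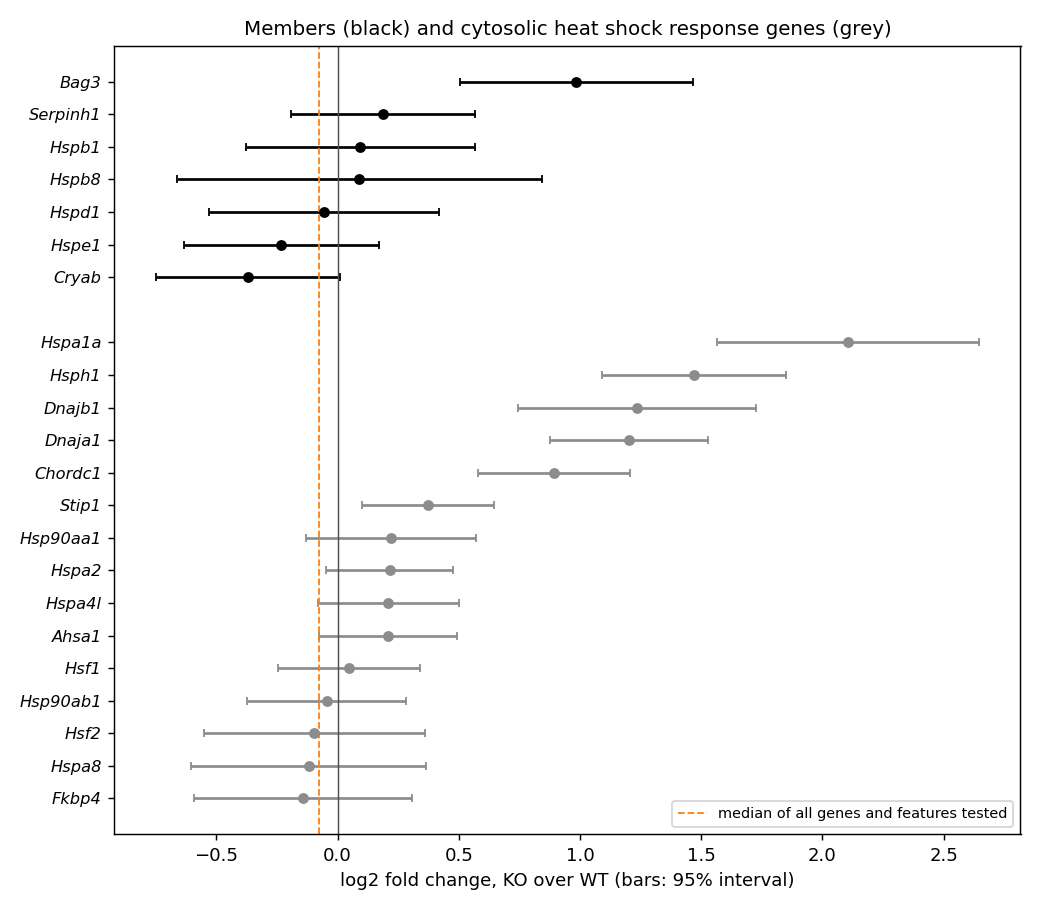
Log2 fold change of KO over WT for the 7 members (black) and the 15 tested genes of the cytosolic heat shock response (grey), with 95% intervals from the fit of all 6 arrays; the dashed line is the median of all features tested. The interval of Bag3 lies above 0, those of the other members include it, and Hspa1a at 2.11 is the highest gene drawn.

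By direction, 4 members had a log2 fold change above 0 and 3 below, with a median of 0.09. Over all features tested 39% lay above 0 and 61% below, with a median of -0.08. That median shifted with the scaling, to 0.10 with median centring and 0.01 with quantile normalization. Relative to the median of all features, the log2 fold change of Bag3 was 1.06, that of Serpinh1 0.26 and that of Cryab -0.30.

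The members also differed in how the WT arrays varied. WT replicate 3 was the highest of the 6 arrays on 7 of the 10 probes, which cover Hspb8, the brighter Cryab probe, Hspd1, Hspe1 and Serpinh1, beside 19.5% of all features. The SD was smaller among KO than among WT arrays on 8 of the 10 probes, beside 69.7% of all features. Averaged over the members other than Bag3, the arrays read 3.37, 3.33 and 3.38 in KO and 3.24, 3.26 and 3.73 in WT.

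WT replicate 3 also had the highest summed signal of the neutrophil, Schwann cell and fibroblast markers, while the sums of other marker lists peaked on other arrays. The peak array depended on the measure. By mean log2 level WT replicate 3 was highest for those lists and also for the pituicyte and glia (-1.17) and folliculostellate (2.73) markers. The 5 neutrophil markers tested of 6 listed averaged -2.81, -3.19 and -2.49 in KO and -2.42, -2.18 and 0.38 in WT. Their summed signal was 1.21 to 1.73 times the 75th percentile in KO and 1.94 to 14.2 times in WT, and the remaining marker, Retnlg, was above background on 1 array. The 6 Schwann cell markers averaged -0.44, -0.44 and -0.46 in KO and -0.70, -0.17 and 0.98 in WT, with sums of 12.9 to 13.8 times in KO and 11.9 to 20.2 times in WT. Prx, a myelin gene of Schwann cells, lay between -3.20 and -2.76 in KO and at -3.26, -2.80 and 0.99 in WT. Mbp, another myelin gene, was the only 1 of the 6 with a log2 fold change above 0 (0.08). It was highest in KO replicate 2, at 3.40, beside 3.35 in WT replicate 3. The 6 fibroblast markers all had log2 fold changes below 0, beside 61% of all features, with a median of -0.39. Their sums were 73.5 to 109 times in KO and 91.5 to 123 times in WT, with WT replicate 2 at 121 times. Col1a1 and Col3a1 were highest in WT replicate 3, Dcn, Lum and Pdgfra in WT replicate 1, and Col1a2 in WT replicate 2. The 4 markers of pituicytes and glia averaged -1.31 to -1.20 in KO and -1.25 to -1.17 in WT, with members on either side of 0: Rax had a log2 fold change of 0.53 with KO wholly above WT, Slc1a3 -0.23 with KO wholly below WT, and Gfap -0.28 and Aqp4 -0.14 with overlap. Summed folliculostellate markers were 128 to 133 times the 75th percentile in KO and 143 to 172 times in WT, highest in WT replicate 1. Endothelial sums (27.1 to 29.8 times in KO, 26.1 to 33.0 times in WT), macrophage sums (16.8 to 19.2 times in KO, 15.8 to 21.6 times in WT) and pericyte sums (8.40 to 10.1 times in KO, 9.71 to 10.3 times in WT) were also highest in WT replicate 1. By mean log2 level the endothelial (1.33), macrophage (1.16) and pericyte (0.05) lists were highest in KO replicate 1 instead. The pericyte mean was lowest in WT replicate 1, at -0.47. Erythroid sums were highest in KO replicate 1, at 127 to 380 times in KO and 216 to 311 times in WT. The part of these cells in the values of the members was not tested. Without WT replicate 3 the log2 fold change was 1.03 for Bag3, 0.33 for Serpinh1, 0.47 for Hspb8, 0.16 for Hspd1, 0.03 for Hspb1, -0.09 for Hspe1 and -0.24 for Cryab.

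**Figure D4:**
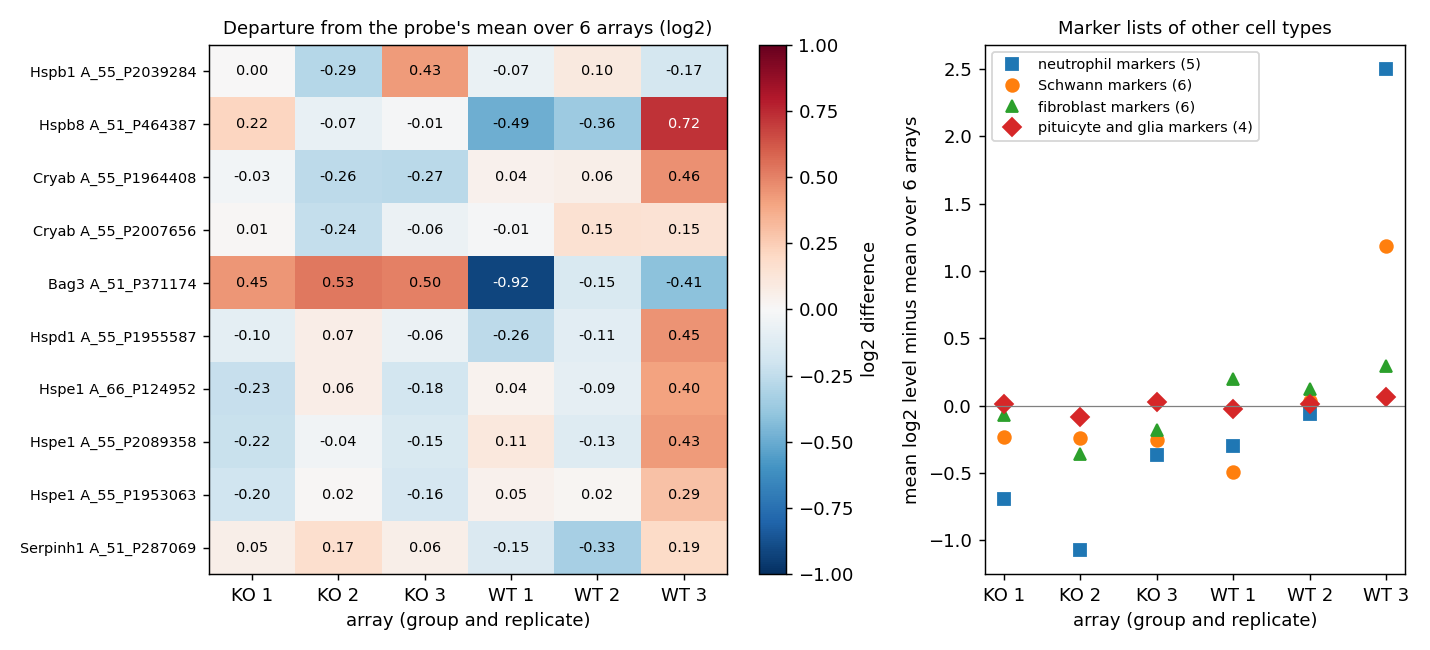
Left, departure of each member probe on each array from its mean over the 6 arrays (log2, red above and blue below). Right, mean level of 4 marker lists on each array minus its mean over the arrays (log2). WT replicate 3 is the highest array for 7 of the 10 probes and for all 4 marker lists, while Bag3 is high on the 3 KO arrays. The lead of WT replicate 3 is smaller for the fibroblast and the pituicyte and glia markers than for the neutrophil and Schwann cell markers.

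Between members, profiles over the 6 arrays agreed most for Hspb8 and Hspd1 (Pearson r = 0.88) and for the chaperonin pair Hspd1 and Hspe1 (r = 0.78). Hspb8 and Serpinh1 had r = 0.76, and Cryab and Hspe1 r = 0.71. Each gene of these pairs was highest in WT replicate 3, so that 1 array weighs on these r. Their values without it were not computed. Bag3 followed none of the other members closely, at r = 0.42 with Serpinh1, 0.21 with its partner Hspb8, 0.05 with Hspd1 and -0.66 with Cryab. All these points share the same 6 arrays, their scaling and the difference between the groups, and the values are descriptions. The genes most like each member over the 6 arrays were Tbc1d31, Acin1 and Ttc32 for Bag3 (r = 0.9996, 0.997 and 0.997) and Gas2l3, Melk and Mcm10 for Cryab (r = 0.994, 0.992 and 0.989). For Hspd1 they were Cep295, Olfm3 and Cltb (r = 0.997, 0.996 and 0.994), and for Hspe1 Brix1, Fbl and Tmem259 (r = 0.998, 0.997 and 0.997). Hspb1 was closest to Dvl2, Dcpp1 and Chmp6 (r = 0.993, 0.986 and 0.981), Hspb8 to Cnot1, Plod1 and Amhr2 (r = 0.982, 0.979 and 0.975), and Serpinh1 to Hormad2, Psen2 and Trp53i11 (r = 0.996, 0.984 and 0.984).

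The cytosolic heat shock response takes in the Hsp70 and Hsp90 machinery with which Bag3 works. Of 17 genes listed, 15 were tested, 11 were above 0 and 4 below, and the median log2 fold change was 0.21, beside -0.08 for all features. By limma 0 passed an adjusted p under 0.05. At an unadjusted limma p under 0.05 there were 6, all higher in KO, beside 3.89% of all features higher in KO. KO values lay wholly above WT values in 9 (60%), beside 7.14% of all features. The list was chosen with earlier results of these data known, so these counts are no independent finding. Hspa1a, the inducible Hsp70, read -0.73, -0.86 and -0.16 in KO and -2.96, -2.41 and -2.70 in WT, a log2 fold change of 2.11 ± 0.23 (SE; limma adjusted p = 0.0932). It was 1.11 with normexp and 1.18 in the authors' table, and its probe may also take up the near-identical Hspa1b. Hsph1, a nucleotide exchange factor of Hsp70, read 4.31, 4.20 and 4.51 in KO and 2.70, 3.12 and 2.79 in WT, a log2 fold change of 1.47 ± 0.16 (SE; limma adjusted p = 0.0932). Dnaja1, an Hsp40 co-chaperone, read 5.22, 5.06 and 5.37 in KO and 3.88, 4.13 and 4.03 in WT, a log2 fold change of 1.20 ± 0.14 (SE; limma adjusted p = 0.0984). Among the WT arrays, replicate 2 was the highest and replicate 1 the lowest in each of these 3 genes, as in Bag3. The 75th percentiles had that order too, at 171, 313 and 193 intensity units for WT replicates 1, 2 and 3. The part of array brightness in this order was not tested. In the other genes of the list at an unadjusted p under 0.05, Dnajb1, Chordc1 and Stip1, WT replicate 3 was the highest of the WT arrays. Over the 6 arrays the r of Bag3 with the 15 genes ran from -0.56 for Hspa8 to 0.95 for Hsph1, with a median of 0.84 and 11 above 0. Cryab had a median r of -0.58 with the same genes. These r span both groups, so they partly repeat the group differences and are no separate evidence. The list's median was above 0 under all 5 scalings and without each array.

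The other small heat shock proteins gave 6 tested genes of 8 listed, since Hspb7 and Odf1 did not pass the filter. Of these, 1 was above and 5 below 0, beside 61% of all features below 0, and the median was -0.19. It was below 0 under all 5 scalings, but -0.01 with median centring and -0.05 in the authors' table. That table held only 4 of the 6 genes, without Hspb3 and Cryaa, so its median is of another set. Of the 6, 2 had KO values wholly below WT values, beside 13.5% of all features. Hspb3, known from muscle, read -3.94, -4.06 and -4.12 in KO and -3.05, -2.10 and -3.33 in WT, a log2 fold change of -1.21 ± 0.30 (SE; limma adjusted p = 0.278) at very low signal. With normexp it was -0.43. Hspb11 had -0.21 ± 0.11 and Cryaa, the other alpha-crystallin, -0.21 ± 0.18. Hspb2, the head-to-head neighbour of Cryab in the genome, had -0.17 ± 0.21, with overlapping groups.

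The cytosolic chaperonin TRiC, which folds actin and tubulin, had 9 of 9 genes tested, 4 above and 5 below 0. Its median log2 fold change was -0.01, and it was 0.03 with quantile normalization, 0.17 with median centring, 0.05 in the authors' table and 0.01 without KO replicate 1. Cct4 had 0.24 ± 0.15, with KO values wholly above WT values, Cct7 -0.30 ± 0.19 and Cct2 -0.15 ± 0.14. Prefoldin and the cofactors that hand proteins to TRiC had all 9 genes below 0, beside 61% of all features. Their median was -0.14, beside -0.08 for all features. It was 0.03 with median centring, when 7 genes were above 0. Of the 9, 3 lay above the median of all features, and 8 did with normexp. Txndc9 had -0.17 ± 0.11, Pfdn6 -0.26 ± 0.17 and Pdcl3 -0.19 ± 0.13. Of the 9, 2 had KO values wholly below WT values, beside 13.5% of all features. By limma, neither list had a gene at an unadjusted p under 0.05, beside 12.8% of all features.

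The other mitochondrial chaperones and the proteases that work beside Hspd1 and Hspe1 had 13 of 13 genes tested, 6 above and 7 below 0, with a median of -0.07 (0.11 with median centring, 0.02 without WT replicate 2). Clpp, the proteolytic chamber of the matrix, had -0.23 ± 0.13, the membrane protease gene Spg7 -0.27 ± 0.16 and the matrix protease gene Lonp1 0.22 ± 0.15. Clpp had KO values wholly below and Lonp1 wholly above WT values, beside 13.5% and 7.14% of all features. By limma 0 of the 13 had an unadjusted p under 0.05, beside 12.8% of all features.

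The other BAG family genes carry the name of the domain through which Bag3 binds Hsp70. Of the 5 tested, 4 were above 0 and 1 below, with a median of 0.07 (0.25 with median centring). The groups of all 5 overlapped, where 20.6% of all features had groups that did not. Bag2, a co-chaperone that slows the ubiquitination of Hsp70 clients, had 0.31 ± 0.18, Bag1 -0.19 ± 0.14 and Bag4 0.15 ± 0.15. The 8 autophagy genes that act with Bag3 had 5 above and 3 below 0, with a median of 0.03 that was 0.21 with median centring, when all 8 were above 0, and -0.02 without WT replicate 1. Map1lc3b, an autophagosome marker, had 0.23 ± 0.14 with KO values wholly above WT values, Synpo2, which binds Bag3 in muscle, 0.31 ± 0.29 and the lysosomal regulator Tfeb -0.12 ± 0.12. Sqstm1, a cargo receptor named after its value was seen, had 0.01 ± 0.11. By limma, neither of these lists had a gene at an unadjusted p under 0.05, beside 12.8% of all features.

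Of 24 collagen genes and collagen-processing genes, the clients and partners of Serpinh1, 23 were tested, 7 were above 0 and 16 below. The median was -0.05, and it was 0.13 with median centring and 0.03 without WT replicate 3. Col1a1, the main chain of type I collagen, read 1.55, 0.90 and 0.81 in KO and 1.78, 1.76 and 2.20 in WT, a log2 fold change of -0.83 ± 0.23 (SE; limma adjusted p = 0.308). It is also one of the fibroblast markers given above. P4hb, a subunit of prolyl hydroxylase, had -0.31 ± 0.14 and Col6a1 -0.42 ± 0.20. Of the 23, KO values lay wholly below WT values in 3 genes and wholly above in 1, beside 13.5% and 7.14% of all features. By limma, Col1a1 was the only gene of the list at an unadjusted p under 0.05, beside 12.8% of all features.

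**Figure D5:**
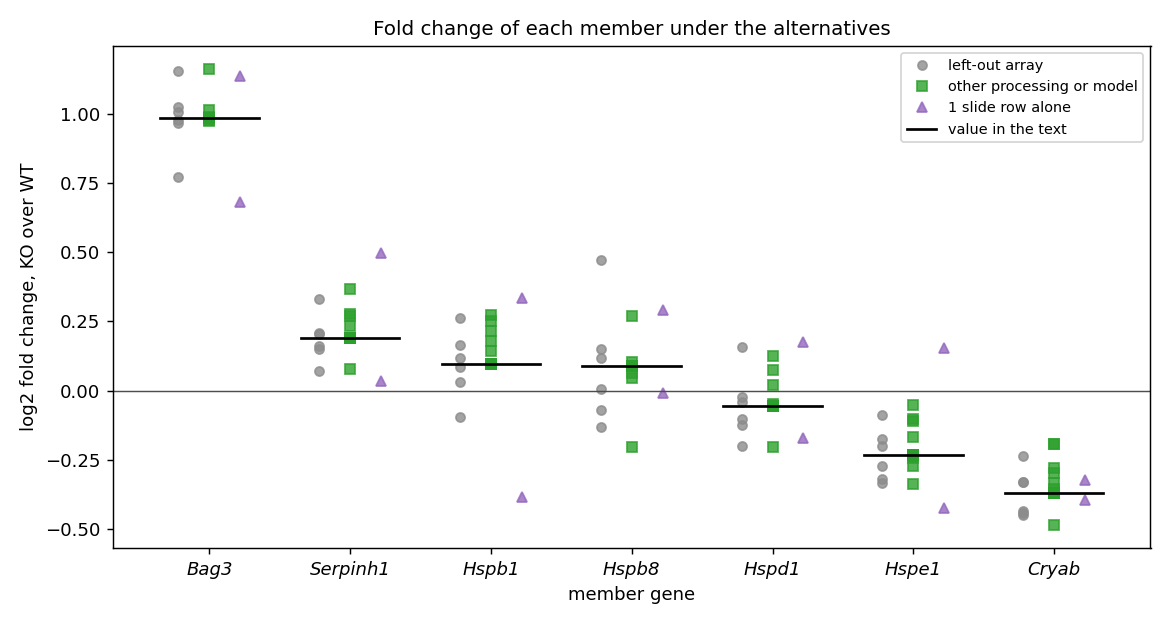
Log2 fold change of KO over WT for each member under each alternative, with arrays left out (grey), other processing or models (green) and each slide row alone (purple), against the value given in the text (black line). Bag3 runs from 0.68 to 1.16 and Cryab stays below 0, while Hspb1, Hspb8, Hspd1 and Hspe1 have values on either side of 0.

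Across the alternatives, Bag3 and Serpinh1 kept a log2 fold change above 0 in all 19 and Cryab below 0 in all 20, which include its dimmer probe and the mean of both probes. Hspb1 kept its sign in 17 of 19, Hspe1 in 20 of 21, Hspb8 in 15 of 19 and Hspd1 in 14 of 19. Within slide row 1 the members other than Bag3 had 0.33 for Hspb1, -0.01 for Hspb8, -0.40 for Cryab, -0.17 for Hspd1, -0.42 for Hspe1 and 0.03 for Serpinh1. Row 2, a single animal per group, gave -0.38 for Hspb1, 0.29 for Hspb8, -0.32 for Cryab, 0.18 for Hspd1, 0.15 for Hspe1 and 0.50 for Serpinh1.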

How the data were processed

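The authors deposited Agilent one-colour spot files. Per the file headers, their intensity values were background-subtracted and detrended by Feature Extraction (version 11.0.1.1) and not scaled between arrays, and all arrays sat on 1 slide read in 1 scan. The authors also deposited log2 values of 29154 spots, with column medians of 8.25 to 8.26 and a correlation of at least 0.997 with the log2 median brightness of the same array. Limma is named, per the submitters' processing notes, and its version and the normalization are not stated there.

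Spots of a probe were averaged as log2 after control and outlier spots had been dropped, and levels were set relative to the 75th percentile of the array. A probe was kept if at least 3 arrays had it well above background (36739 of 55681), and a gene was read from its brightest probe. KO and WT were compared by lmFit and eBayes of limma (version 3.58.1; R version 4.3.3; data.table version 1.17.8), two-sided, with Benjamini-Hochberg adjustment over 26887 features. RefSeq for GRCm38.p6 gave symbols (27656 probes matched) and promoter windows, and no other coordinates.

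The named genes were every member and probe, the 3 genes with the highest r with each member, and up to 3 genes with the smallest p in each related list. Hspb2, neighbour of Cryab, the myelin genes Prx and Mbp and the fibroblast, pituicyte and glia markers were named after their values were seen. So were Dnajb1, Chordc1, Stip1 and the genes at the ends of the range of r. The members and lists were chosen with earlier results of these data known, and recomputing the lists under each scaling and without each array was added after seeing the data. Alternatives were other background corrections, scalings (median centring used the median of all non-control probes, dim ones included), filters, probe summaries, variance models and thresholds, blocks for replicate number and slide row, each slide row alone, and 1 array left out at a time. The scripts were tested on simulated data first.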

Additional observations from a re-analysis of the deposited data

How the results depend on the processing

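The members called stayed at 0 in every alternative that gave a test. The count over all features, 0 in the main setting, was 24 with normexp, 27 in the authors' value table, 19 with median centring, 11 with the filter on all 6 arrays, 27 with a variance trend and robust fitting, 7 with array weights and 15 at an adjusted p under 0.1. It ran from 0 to 1 when 1 array was left out, while the count at an unadjusted p under 0.05 ran from 1969 without KO replicate 3 to 5508 without WT replicate 2, against 3445 with all arrays. The lower share among these was 69.6%, and 68.1% with normexp, 42.9% with quantile normalization, 46.8% in the authors' table and 22.9% with median centring. Signs turned for Hspd1 with quantile normalization (0.075), median centring (0.123), the authors' table (0.019), slide row 2 alone (0.176) and without WT replicate 3 (0.156). They turned for Hspb8 with array weights (-0.204), in slide row 1 (-0.010) and without WT replicate 1 (-0.133) or 2 (-0.070), for Hspb1 in slide row 2 (-0.384) and without KO replicate 3 (-0.095), and for Hspe1 in slide row 2 (0.153). Leaving out 1 array gave -0.095 to 0.262 for Hspb1, -0.133 to 0.472 for Hspb8 and -0.200 to 0.156 for Hspd1. The cause of these changes was not tested. Same-numbered arrays correlated across genes at 0.15, -0.179 and -0.083 in their departures from the group means. Unlike-numbered arrays of the 2 groups ran from -0.140 to 0.210. Departures within a group sum to 0, so these values cannot decide whether the animals were paired. No pairing is stated, and the numbers were not taken to pair the animals, although number 2 of both groups also marks slide row 2. With the replicate block 0 features and 0 members were called, and Bag3 kept 0.984 with an adjusted p of 0.422. With 3 arrays per group, members whose intervals include 0 may still differ between the groups.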
